A study of Mus musculus with 4 samples.

Results

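Genes of voltage-gated and potassium channels were examined in RNA of S100A4-/- and wild type (WT) mouse lenses. They were taken as every row of the deposited table whose Ensembl identifier carried a symbol of the Kcn (potassium channel), Scn (voltage-gated sodium channel) or Cacn (voltage-gated calcium channel) families. This gave 88 of 14924 genes, of which 52 were Kcn, 11 Scn and 25 Cacn, and 1 of the 88, Kcnmb4os2, was an antisense RNA and not a channel subunit. The study compared lenses of 1-month-old mice on a C57BL/6J background that lacked S100A4, a small calcium-binding protein, with lenses of their WT littermates, and no other allele or treatment was named. Each group had 2 libraries of polyA RNA, each made from 6 to 12 pooled lenses, so the p-values concern pools and not single mice. In the main test, limma with a variance trend, the spread used for each gene was drawn toward that of genes at a similar level. It is therefore not only the spread between that gene's own pools. Mice of both sexes were used in the study, and the sex make-up of each pool was not given. The libraries held 81602367 and 74108017 reads (S100A4-/-) and 70253985 and 68038158 reads (WT) over the genes of the table.

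Voltage-gated channels are membrane pores that open when the voltage across the membrane changes, and their auxiliary subunits set where, when and how readily the pore opens. Potassium channels hold the resting potential and end electrical signals, sodium channels start fast ones, and calcium channels couple voltage to secretion and transcription. In the lens, epithelial potassium channels set much of the voltage of the tissue, whereas photoreceptors and other retinal cells use dedicated channel sets for the light response and for transmitter release.

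S100a4 itself checked the labels. Its normalized values (reads scaled by 1 factor for each library, with no correction for gene length) were 14.6 and 18.2 in S100A4-/- lenses and 14420 and 14385 in WT. The log2 fold change was -9.70 (SE 0.10, limma with Benjamini-Hochberg adjustment, adjusted p = 6.4e-41). The pools therefore stood apart at the targeted gene as their names say. Lens identity was also present in all 4 libraries, with Cryaa, a lens crystallin and the gene with the most reads of 11 lens fiber markers, at 11948842 and 13289361 in S100A4-/- and 13062948 and 13333352 in WT.

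Of the 88 channel genes, 85 reached a value of 10 in at least 1 library and were tested. A gene was called when it changed at least 2-fold with an adjusted p of at most 0.05. By this rule 16 channel genes were higher in S100A4-/- lenses (18.8% of those tested, against 3.65% of all genes tested) and 0 were lower (against 0.0744% of all genes). At an unadjusted p under 0.05 there were 30 channel genes, beside 17.7% of all genes. On reads recovered from the values, edgeR's quasi-likelihood test called 16 higher (3.76% of all genes) and DESeq2's Wald test 14 (2.82%), and both called 0 lower. Of the tested channel genes, 17 reached the value of 10 only in S100A4-/- libraries. Among the 68 that reached it in a WT library, 12 were higher (17.6%, against 3.05% of the 14020 such genes in the table). The median log2 fold change of the 85 genes was 0.31 (quartiles -0.08 and 1.30), beside a median of -0.01 over all genes. In the 68 genes that reached 10 in a WT library it was 0.12 (quartiles -0.16 and 0.69). Both S100A4-/- values lay above both WT values in 42 channel genes (23.7% of all genes did so) and below both in 15 (23.2% of all genes).

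By family, 8 of 52 Kcn, 2 of 9 Scn and 6 of 24 Cacn genes tested were higher, beside 3.65% of all genes. Their median log2 fold changes were 0.29, 0.13 and 0.66, beside -0.01 over all genes. However, 12 Kcn, 1 Scn and 4 Cacn genes reached 10 only in S100A4-/- libraries, so nothing is read from these medians. The called genes Kcnc2, Kcnj3, Kcnj9 and Scn7a were among these. The count of 16 called channel genes rested on both S100A4-/- pools. Without S100A4-/- library 1, 4 channel genes passed (among them Kcnv2, Cacna1g and Cacna2d4), and without S100A4-/- library 2, 6 passed (among them the same genes and Cacna2d2 and Cacnb2), while 1.14% and 1.42% of all genes then passed as higher. Leaving out WT library 1 or 2 left 16 each (3.69% and 3.67% of all genes). The count was 8 when a mean value of 50 was required (2.48% of all genes), 7 when limma's variance trend was left out (1.18%), 3 when limma tested against a 2-fold change (1.14%), 12 after quantile normalization (2.55%) and 14 after scaling to equal totals (3.64%). Fewer cells of a type and less RNA per cell cannot be told apart in RNA of whole lenses.

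**Figure D1:**
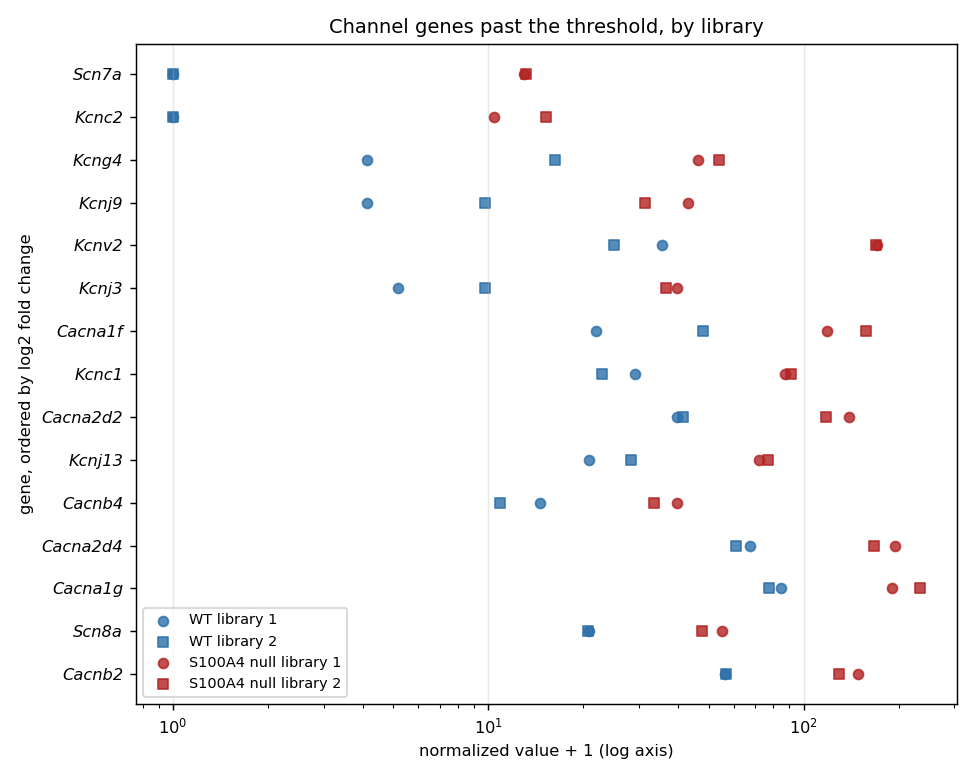
Normalized value + 1 (log axis) of 15 of the 16 channel genes higher in S100A4-/- lenses, 1 point per library, with genes ordered by log2 fold change. Both S100A4-/- points lie to the right of both WT points in every row, and Scn7a and Kcnc2 have WT values of 0.

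Among the voltage-gated potassium (Kv) channels, calls were made among pore and silent subunits, and the classes were not tested against each other. Of 20 Kv pore genes tested, 3 rose (among them Kcnc1 and Kcnc2), both silent genes rose (Kcnv2 and Kcng4), and 0 of 10 genes of auxiliary subunits did, beside 3.65% of all genes. Of these, Kcnc2 reached the tested value only in S100A4-/- libraries. The median log2 fold change was 0.34 in the pore class (11 of 20 positive) and 0.58 in the auxiliary class (8 of 10 positive). In these classes, 5 pore and 4 auxiliary genes reached the tested value only in S100A4-/- libraries, so nothing is read from the medians. A silent subunit forms no channel alone and changes the current of a pore subunit it joins. Kcnv2, a silent subunit known from photoreceptors, had 170 and 169 in S100A4-/- and 34.5 and 24.1 in WT. Its libraries formed separate groups (log2 fold change 2.51, SE 0.25, limma adjusted p = 4.5e-10), and it was the only channel gene called under all 17 alternative settings. Kcng4, another silent subunit, had 45.4 and 52.7 in S100A4-/- and 3.13 and 15.3 in WT. The WT pools differed widely at Kcng4, with 3 and 14 reads (log2 fold change 2.60, SE 0.51, limma adjusted p = 0.0004). Without WT library 1 its log2 fold change was 1.61 and without WT library 2 it was 3.59. Without limma's variance trend its adjusted p was 0.319.

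Kcnc1, a pore subunit of fast-spiking neurons that opens at strongly positive voltage, had values of 86.5 and 90.2 in S100A4-/- and 28.2 and 21.9 in WT, a log2 fold change of 1.79 (SE 0.30, limma adjusted p = 3e-05). Its close relative Kcnc2 had 11 and 14 reads in S100A4-/- and 0 in both WT libraries. It was at least 3.68-fold higher, taking 3 reads per WT library as the limit that a count of 0 allows (limma adjusted p = 0.0446), and it was not called at a pseudocount of 0.5. Neither Kcnc2 nor Scn7a, the other gene at 0 in WT, was called after scaling to equal totals or quantile normalization. Kcnh5, an ether-a-go-go type pore, had 6 and 14 reads against 1 and 0, and was not called (limma adjusted p = 0.168). Without S100A4-/- library 1 the limma adjusted p of Kcng4, Kcnc1 and Kcnc2 was 0.182, 0.0680 and 0.169, and without library 2 it was 0.206, 0.0657 and 0.235. Without limma's variance trend, Kcnc1 had an adjusted p of 0.0529.

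The proximal promoters of Kcnc1 and Kcng4, which both rose, are shown. Kcnc1 was picked to show its content of CG, the dinucleotide at which mammalian DNA is methylated. Kcng4 was picked because it holds TAATCC, a motif explained below, and its stretch was placed to show it. Neither stands for the other genes that rose. In the 300-base RefSeq windows (250 bases before the start to 50 after, build GRCm38.p6), Kcnc1 held 41 CG and Kcng4 4, against a median of 7 over 32851 windows of all genes. Below are 100 bases of each, ending at the base before the start for Kcnc1 (chr7:46396368-46396467, plus strand, capitals mark CG) and at the fifth base of the transcript for Kcng4 (chr8:119635676-119635775, minus strand, capitals mark TAATCC).
Kcnc1: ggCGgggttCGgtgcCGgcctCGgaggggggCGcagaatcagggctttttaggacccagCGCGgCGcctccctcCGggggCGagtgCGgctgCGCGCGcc
Kcng4: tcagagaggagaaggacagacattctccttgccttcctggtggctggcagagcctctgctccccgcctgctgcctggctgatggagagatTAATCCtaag
TAATCC is the core bound by the photoreceptor homeodomain factor Crx, and it was searched as TAATCC or its reverse complement GGATTA, so both strands were covered. In Kcng4 it begins 5 bases before the start.

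Inward rectifiers pass potassium more easily into the cell than out and clamp the resting potential. Of 8 such genes tested, 3 rose (Kcnj3, Kcnj9 and Kcnj13), beside 3.65% of all genes, and Kcnj3 and Kcnj9 reached the tested value only in S100A4-/- libraries. Kcnj3, a subunit of the channel that G proteins open in neurons and heart, had values of 38.5 and 35.5 in S100A4-/- and 4.18 and 8.76 in WT (log2 fold change 2.42, SE 0.52, limma adjusted p = 0.0013). Kcnj9, another subunit of that channel, had 42.0 and 30.4 in S100A4-/- and 3.13 and 8.76 in WT (log2 fold change 2.53, SE 0.55, limma adjusted p = 0.0015). For both genes the groups were apart, yet the WT pools held only 3 to 8 reads. Kcnj5, a further member of the same channel group, did not follow, with 2.57 and 1.01 in S100A4-/- and 1.04 and 12.0 in WT (limma adjusted p = 0.747), and the sign of its log2 fold change turned from -0.95 to 0.39 without WT library 2.

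Kcnj13, the inward rectifier of the apical membrane of the retinal pigment epithelium, had values of 71.1 and 76.0 in S100A4-/- and 19.8 and 27.4 in WT. The groups were separate (log2 fold change 1.62, SE 0.32, limma adjusted p = 0.0004). Part of its exons lies opposite exons of Gigyf2, and whether the counting used strand is not stated. Kcnj10, the main rectifier of Müller glia, had 42.8 and 38.5 against 25.1 and 28.5, apart but not called (log2 fold change 0.59, SE 0.35, limma adjusted p = 0.404). Kcnj14, known from retinal neurons, had 392 and 414 in S100A4-/- and 409 and 392 in WT, so its groups overlapped. Without S100A4-/- library 1 the limma adjusted p of Kcnj3, Kcnj9 and Kcnj13 was 0.161, 0.214 and 0.115, and without library 2 it was 0.126, 0.115 and 0.122. Without limma's variance trend it was 0.124, 0.191 and 0.0811. The log2 fold change of Kcnj9 was 1.91 without WT library 1 and 3.15 without WT library 2.

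The 300-base windows of Kcnj13 and Kcnj9 held 5 CG each, near the median of 7 over all windows. Kcnj13 is shown for comparison with Kcnc1, and Kcnj9 was picked because it holds GGATTA. The 100 bases before the RefSeq start are given for Kcnj13 (chr1:87394730-87394829, minus strand, capitals mark CG) and Kcnj9 (chr1:172329323-172329422, minus strand, capitals mark GGATTA, which begins 97 bases before the start).
Kcnj13: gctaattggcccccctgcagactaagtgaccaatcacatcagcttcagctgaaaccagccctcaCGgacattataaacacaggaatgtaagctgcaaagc
Kcnj9: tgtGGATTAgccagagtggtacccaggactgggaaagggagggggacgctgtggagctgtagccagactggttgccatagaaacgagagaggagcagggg
RefSeq windows matched 12 of the 16 genes that rose (Kcnv2, Cacna2d4 and Cacna1g were among those with no entry) and 62 of the 88 channel genes. TAATCC or GGATTA stood in 3 of 19 windows of the genes that rose (15.8%: Kcng4, Kcnj9 and, 228 bases before the start, Scn7a), in 6.59% of the 91 windows of channel genes and in 7.06% of all windows. The CG count of the 19 windows ran from 3 to 43.

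The remaining potassium channel classes held no call. As 3.65% of all genes were called higher, 0 calls in so few genes is not read as a result about these classes. Of the 6 calcium- or sodium-activated genes tested, 0 passed, and Kcnt1, a sodium-activated channel, had 14 and 6 reads against 3 and 0 (limma adjusted p = 0.249). Of the 5 genes of 2-pore channels, which carry background current, 0 passed. Kcnk1, the highest of them per kb in WT, had 504 and 521 in S100A4-/- and 391 and 422 in WT, above in both pools but by less than 2-fold (log2 fold change 0.34, SE 0.10, limma adjusted p = 0.0303). Kcnk2, a channel that opens on stretch and had the lowest WT level of the class, had 10.3 and 11.2 in S100A4-/- and 11.5 and 16.4 in WT (limma adjusted p = 0.832). Among auxiliary Kv subunits the largest log2 fold change was that of Kcnip4, a calcium sensor of somatodendritic channels, at 1.34 on 7 and 11 reads against 3 and 2 (limma adjusted p = 0.464). The antisense RNA Kcnmb4os2 had values of 5.14 and 15.2 in S100A4-/- and 17.8 and 16.4 in WT (limma adjusted p = 0.485). Its exons lie opposite those of Kcnmb4.

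**Figure D2:**
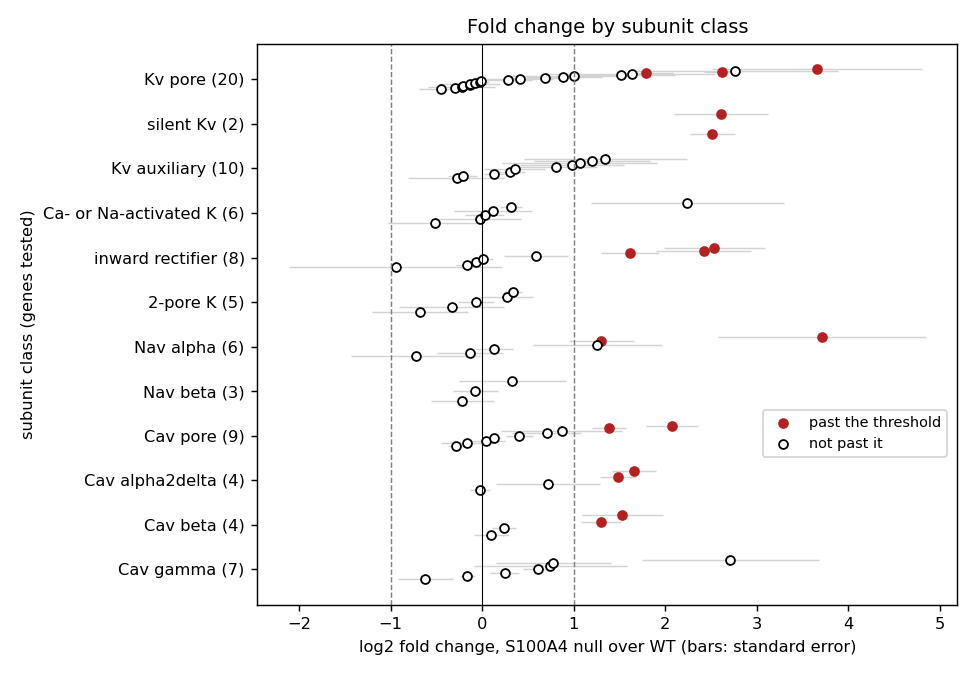
Log2 fold change (S100A4-/- over WT) of each tested channel gene with its standard error as a bar, by subunit class, with the number tested in brackets and Kcnmb4os2 left out. Filled points passed the threshold, and dashed lines mark a 2-fold change. Both silent Kv genes lie above 2.5, and no filled point lies on the lower side.

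Voltage-gated sodium channels were sparse in these lenses, and 2 of 6 alpha subunit genes tested rose while 0 of 3 beta subunit genes did, beside 3.65% of all genes. Of the 2, Scn7a reached the tested value only in S100A4-/- libraries. Scn8a, the main sodium channel of the axon initial segment in adult neurons, had values of 54.0 and 46.6 in S100A4-/- and 19.8 and 19.7 in WT (log2 fold change 1.30, SE 0.36, limma adjusted p = 0.0163). Its groups were apart, and DESeq2's Wald test did not call it (adjusted p = 0.115), nor did limma after quantile normalization (adjusted p = 0.0893). Scn7a, an atypical family member that senses extracellular sodium in glia, had 14 and 12 reads in S100A4-/- and 0 in both WT libraries, which was at least 3.76-fold higher (limma adjusted p = 0.0370). Without S100A4-/- library 1 the limma adjusted p of Scn8a and Scn7a was 0.285 and 0.199, and without library 2 it was 0.180 and 0.186. Scn3b, a beta subunit, had values of 13.7 and 13.2 in S100A4-/- and 8.35 and 13.1 in WT (limma adjusted p = 0.838). Scn3a and Scn4a stayed below the value of 10 in every library and were not tested.

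Voltage-gated calcium channels combine a pore with alpha2delta and beta subunits, which carry the pore to the membrane and tune its gating. Of 9 pore genes tested, 2 rose (Cacna1f and Cacna1g), of 4 alpha2delta genes 2 rose (Cacna2d2 and Cacna2d4), and of 4 beta genes 2 rose (Cacnb2 and Cacnb4), beside 3.65% of all genes. Cacna1f, the pore of the calcium channel at photoreceptor ribbon synapses, had values of 117 and 157 in S100A4-/- and 20.9 and 47.1 in WT. The WT pools differed more than 2-fold from each other but stayed below both S100A4-/- pools (log2 fold change 2.08, SE 0.29, limma adjusted p = 1e-06). Cacna2d4, the alpha2delta subunit of that synaptic channel, had 194 and 166 in S100A4-/- and 66.8 and 60.2 in WT (log2 fold change 1.48, SE 0.20, limma adjusted p = 4.8e-07). Cacnb2, its beta subunit, had 148 and 129 in S100A4-/- and 55.3 and 55.8 in WT (log2 fold change 1.30, SE 0.22, limma adjusted p = 3.4e-05). All 3 subunits of the photoreceptor channel were thus higher in both S100A4-/- pools than in either WT pool.

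Cacna1g, a low-voltage-activated (T-type) pore that supports rhythmic firing, had values of 190 and 233 in S100A4-/- and 83.5 and 76.6 in WT (log2 fold change 1.38, SE 0.18, limma adjusted p = 3.4e-07). Cacna2d2, an alpha2delta subunit of cerebellar and other neurons, had 139 and 117 in S100A4-/- and 38.6 and 40.5 in WT (log2 fold change 1.66, SE 0.24, limma adjusted p = 2.7e-06). Cacnb4, a beta subunit of central neurons, had 38.5 and 32.4 in S100A4-/- and 13.6 and 9.85 in WT (log2 fold change 1.53, SE 0.45, limma adjusted p = 0.0267). Groups were separate in all 3 genes, and DESeq2's Wald test did not call Cacnb4 (adjusted p = 0.151). Cacnb4 was also not called without WT library 2 (limma adjusted p = 0.0896) or after quantile normalization (limma adjusted p = 0.127). Without S100A4-/- library 1 the limma adjusted p of Cacna1f, Cacnb2, Cacna2d2 and Cacnb4 was 0.0567, 0.0929, 0.0591 and 0.316, and without library 2 Cacna1f and Cacnb4 had 0.105 and 0.202. Without limma's variance trend, Cacna1f, Cacna1g and Cacnb4 had 0.223, 0.0648 and 0.0988.

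Among the gamma subunits, many of which escort AMPA-type glutamate receptors and not calcium channels, 0 of 7 genes passed. With 3.65% of all genes called higher, this is not read as a result about the class. Of the 7, 3 reached the tested value only in S100A4-/- libraries. Cacng3 had 20 and 9 reads in S100A4-/- libraries and 0 and 3 in WT, a log2 fold change of 2.71 (SE 0.96, limma adjusted p = 0.0897) that was called only without WT library 2 (3.76, limma adjusted p = 0.0253) and was 1.66 without WT library 1 (limma adjusted p = 0.343). Cacng4 had values of 167 and 199 against 123 and 115, above in both pools with a log2 fold change of 0.61 (SE 0.17, limma adjusted p = 0.0176) that stayed under 2-fold. Cacna1e, the pore of a calcium channel of central neurons, had 10 and 6 reads against 1 and 0 and was not tested. Cacng2, an AMPA receptor escort, had 5 and 13 reads against 5 and 3, which overlap. Cacna1s, the pore of skeletal muscle, had 12 and 15 reads against 6 and 6, and Cacna2d3, the alpha2delta gene with the lowest WT level, had 25 and 14 against 6 and 15, and neither was called (limma adjusted p = 0.546 and 0.567). Cacna1a, the pore of the presynaptic channel of many neurons, had 615 and 624 in S100A4-/- and 717 and 797 in WT (log2 fold change -0.29, SE 0.09, limma adjusted p = 0.0325), a fall below the 2-fold limit, and it is named outside the rule for named genes.

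**Figure D3:**
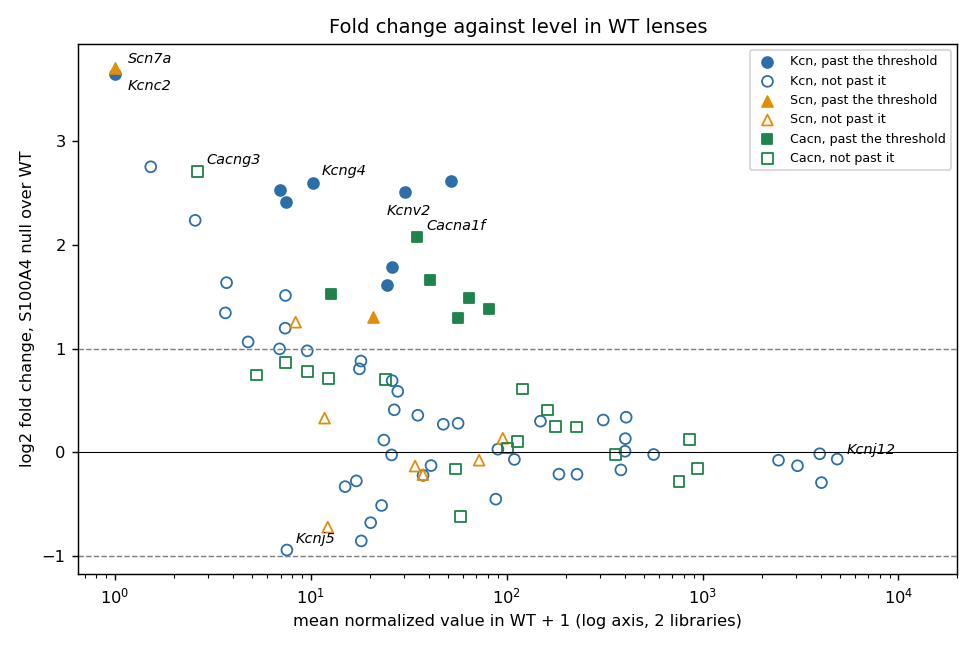
Log2 fold change (S100A4-/- over WT) against the mean normalized value + 1 in the 2 WT libraries (log axis), 1 point per tested channel gene, with shape and color for the family and filled points past the threshold. Every filled point has a WT mean under 100, and the 5 genes above 1000 lie within a 2-fold change.

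By level in WT lenses, all 16 calls lay at a mean normalized value under 100 (not corrected for length). With a WT mean under 10, 5 of 20 channel genes rose (25.0%, against 12.6% of all genes in that range), and between 10 and 100, 11 of 41 did (26.8%, against 8.74%). Of the 20 genes under 10, 17 reached the tested value only in S100A4-/- libraries, among them Kcnc2, Scn7a, Kcnj3 and Kcnj9 of the 5 called, so nothing is read from that range. Between 100 and 1000, 0 of 19 rose (against 1.13%), and above 1000, 0 of 5 (against 0.166%). Because the WT mean is also the denominator of the fold change, the ranges were repeated on the mean of all 4 libraries. There 2 of 13 channel genes rose under 10 (15.4%, against 2.07% of all genes), 11 of 44 between 10 and 100 (25.0%, against 9.65%), 3 of 23 between 100 and 1000 (13.0%, against 2.21%) and 0 of 5 above 1000 (against 0.444%). The 2 genes under 10 were Kcnc2 and Scn7a, which were at 0 in WT, so nothing is read from that range either. Between 10 and 100, the called genes Kcnj3 and Kcnj9 reached the tested value only in S100A4-/- libraries, so that share is not free of this limit.

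Levels of the channel genes were ranked against each other per kb of exon. In WT, Kcnj12, a strong inward rectifier of muscle and neurons, led with 1770 ± 0.28 (normalized value per kb, SD, n = 2) and made up 32.3% of the summed level per kb of all channel genes. Below it, Kcnh2, the pore of the rapid cardiac delayed rectifier, had 503 ± 17.0, and Kcnh1, an ether-a-go-go pore, had 416 ± 4.26. Cacng7, a gamma subunit of the AMPA receptor escort type, had 387 ± 9.56. Neighbors among the genes named here, down to Kcnj11, differed by more than their SDs. Kcnk1 had 182 ± 9.82, Kcnj14 147 ± 4.51, Kcnj11, the pore of the ATP-sensitive channel, 104 ± 7.80, and Cacng6, a relative of the skeletal muscle gamma subunit, 89.2 ± 14.1. Kcnj11 and Cacng6, and Cacng6 and the next gene, Kcna5, did not differ beyond their spread. Scaling the libraries to equal totals left the order of the 10 highest genes as it was.

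Of the 10 channel genes highest per kb, 0 passed the threshold in limma and 4 had an unadjusted p under 0.05, beside 17.7% of all genes. Their log2 fold changes had a median of -0.07 and were highest at Kcnk1 (0.34). The edgeR and DESeq2 tests called none of them either. Kcnj12 had values of 4736 and 4552 in S100A4-/- and 4866 and 4867 in WT, lower in both pools by a log2 fold change of -0.07 (SE 0.05, limma adjusted p = 0.523). With the adjusted p alone as the rule, 2 channel genes were lower (Cacna1a among them, where 1.33% of all genes were) and 18 higher (the 16, Cacng4 and Kcnk1, where 5.62% of all genes were).

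**Figure D4:**
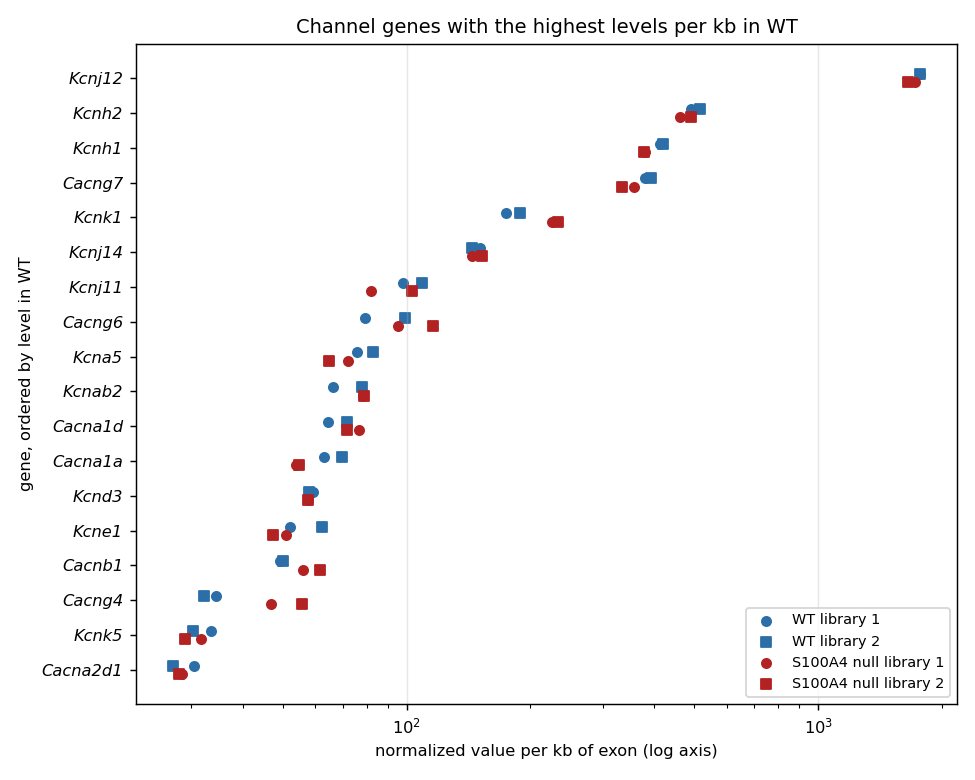
Normalized value per kb of exon (log axis) of 18 of the 20 channel genes with the highest WT level, 1 point per library, ordered by the WT mean. Kcnj12 stands at the top with 1770 in WT, and for most genes the S100A4-/- points lie close to the WT points.

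Other channels and known partners of these families were followed in a list of 94 genes, 78 of which were in the table and 77 tested. Of these, 10 were higher (against 3.65% of all genes) and 0 lower, with a median log2 fold change of 0.16. Among the called genes, Cftr, Lrrc38 and Cabp4 reached the tested value only in S100A4-/- libraries, so nothing is read from their calls. Of 8 cyclic-nucleotide-controlled channels, 2 rose, among them Cnga1, the rod transduction channel, from 58.5 and 41.6 in WT to 210 and 180 in S100A4-/- (log2 fold change 1.96). Of 17 chloride and volume channels 2 rose, Best2, a bestrophin (2.17), and Cftr, the epithelial chloride channel, with 23 and 26 reads against 1 and 3 (3.01). Of 18 partners 4 rose. These were Cabp4, a calcium-binding protein that modulates the photoreceptor calcium channel (2.72), Lrrc38, an auxiliary protein of the large-conductance potassium channel (2.52), Rims2, a release-site scaffold (1.54), and Dpp6, an auxiliary subunit of Kv channels (1.37). Unc80, a part of the sodium leak channel complex (2.34), and Asic4, an acid-sensing channel relative (2.07), were the 2 that rose of 9 sodium leak and epithelial sodium channels. No gene of 14 TRP and mechanosensitive channels or of 11 calcium store channels passed. With 3.65% of all genes called higher, this is not read as a result about these channels. Trpm1, a TRP channel, had 1186 and 1005 in S100A4-/- and 593 and 562 in WT. It stayed just under the 2-fold limit (log2 fold change 0.92, limma adjusted p = 1.1e-10).

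Markers of other eye cell types moved in the same libraries, and their part in the channel results was not tested. Counts of higher markers below stand beside 3.65% of all genes. Of the called markers, Gad2, Crym, Mlana and Kdr reached the tested value only in S100A4-/- libraries. Of 14 rod photoreceptor markers, 13 were higher in S100A4-/- lenses, with summed values of 13609 and 13170 in S100A4-/- and 3284 and 3424 in WT (3.99-fold, median log2 fold change 2.00). These 13 are all in the study's own list of retinal genes raised in the same libraries, so nothing is read from this count. In this and the lists below, the gene with the highest value is named, with no correction for length. In all 4 libraries it was Gnat1 here, the rod transducin subunit, with 3339 and 3327 in S100A4-/- and 736 and 782 in WT, and none of the 14 was at 0 in a library. Thus rod transcripts were also present in WT lenses. Of 8 cone markers 4 were higher, with sums of 297 and 320 against 136 and 139, none at 0, and Opn1sw highest in library 1 of each group and Opn1mw in library 2. Of 7 bipolar cell markers 2 were higher, with sums of 2912 and 2714 against 2266 and 2207, Prkca highest and none at 0.

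For amacrine and ganglion cells, 7 of 11 markers were higher, with sums of 1470 and 1459 in S100A4-/- against 547 and 596 in WT, led by Slc6a9, while Gad2 and Slc17a6 were at 0 in a library. Of 8 tested pigment epithelium and pigment cell markers, 6 were higher, with sums of 1744 and 1758 against 447 and 572, with none at 0. The highest was Ttr in WT (211 and 253, and 449 and 408 in S100A4-/-) and Dct, an enzyme of melanin synthesis, in S100A4-/- lenses (581 and 582, and 31.3 and 44.9 in WT). Dct rose by a log2 fold change of 3.92 (limma adjusted p = 7.4e-20). The Müller glia list gave 4 of 7 higher, and Crym was at 0 in a library. The sum of the list (163377 and 174348 against 168883 and 170137) came mostly from Vim and Dkk3. Neither was called (log2 fold change -0.10 and 0.03), and Vim is also abundant in lens cells. Aqp4, with 753 and 698 in S100A4-/- and 659 and 702 in WT, was not called either (limma adjusted p = 0.637). Glul, the glutamine synthetase of Müller glia, rose from 1779 and 1923 in WT to 5387 and 5421 in S100A4-/-. Of 6 macrophage and microglia markers tested 4 were higher, with sums of 293 and 247 against 103 and 86.5, led by Csf1r and with none at 0.

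Of 6 endothelium markers 1 was higher (sums 207 and 215 against 109 and 138). This was Kdr, a receptor for vascular growth factor, which was highest in S100A4-/- lenses (74.5 and 60.8, and 9.40 and 9.85 in WT), while Tek was highest in WT (49.1 and 59.1, and 46.2 and 44.6 in S100A4-/-). As Kdr reached the tested value only in S100A4-/- libraries, nothing is read from this call. Of 4 pericyte markers 1 was higher (sums 2593 and 2572 against 2488 and 2516, led by Pdgfrb), and no gene of either list was at 0. Of 11 lens fiber markers 0 were higher or lower (0.958-fold by their sums), and of 5 lens epithelium markers, led by Pax6, likewise 0 (0.997-fold).

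**Figure D5:**
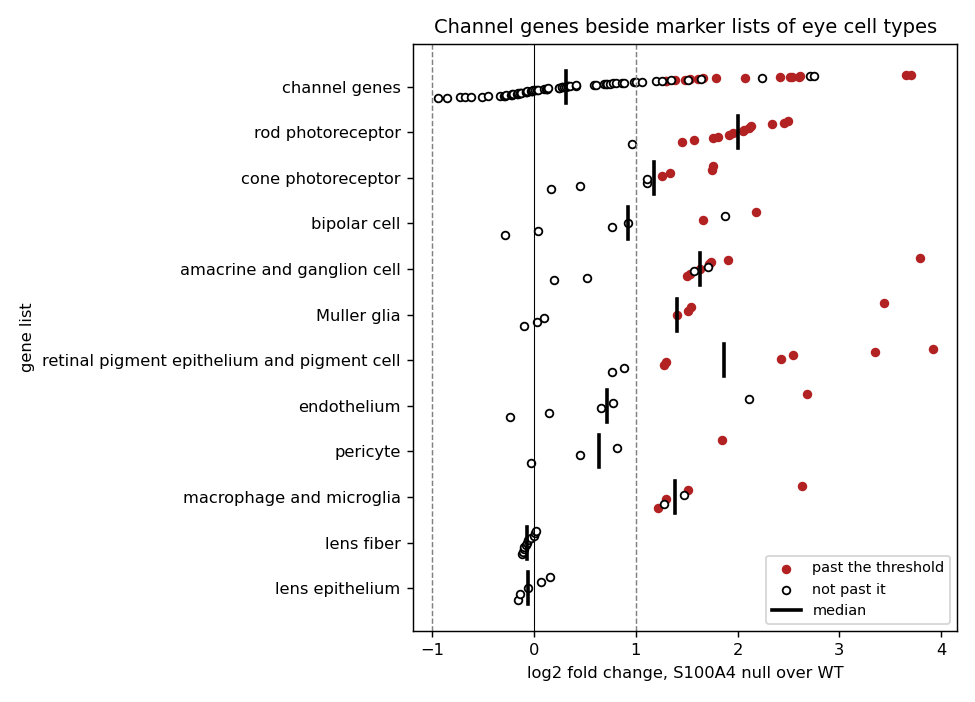
Log2 fold change (S100A4-/- over WT) of each tested gene in the channel families and in marker lists of eye cell types, with filled points past the threshold, a thick line at each median and dashed lines at a 2-fold change. The rod list has a median of 2.00, the channel genes 0.31, and both lens lists lie near 0.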

How the data were processed

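RNA of 4 lens libraries (2 S100A4-/-, 2 WT) was sequenced by stranded, single-end mRNA-seq in 1 lane. For trimming the authors used Trim Galore, for mapping STAR (GRCm38 v73, mm10) and for counting HTSeq, with reads of a single locus. Genes under 10 reads in all libraries were dropped by the authors, and DESeq2 gave the size factors. Versions are not given in the sources used here. The deposited signal values are counts scaled by these size factors. Values of 1 read were 0.856 and 1.01 (S100A4-/-) and 1.04 and 1.09 (WT), and 100.0% of values were whole multiples of these (tolerance 0.02), so reads were recovered by division. On those reads, edgeR's quasi-likelihood test called 16 channel genes higher (555 of all genes) and DESeq2 14 (421).

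Symbols, positions and exon lengths came from GENCODE M21, which matched 14782 of 14924 genes. The annotation holds 133 protein-coding genes whose symbols fit the rule, and 46 of these were not analysed here. The main test was limma (3.58.1, R 4.3.3) with a variance trend on log2(value + 1), fitted to the 14780 genes that reached 10 in 1 library or more. Fold changes are on that scale, which understates low genes. The fold limit of 2 and adjusted p of 0.05 follow the study's methods. Alternatives included edgeR 4.0.16 and DESeq2 1.42.0. The limma, edgeR and DESeq2 fits were tested on simulated counts. Floors cover counting error only, and reads without molecular identifiers are not independent molecules.

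The members, gene lists and cell type markers were chosen with earlier results of these data known. Named genes were the 15 largest rises among called genes with separate groups, the 10 highest in WT per kb, genes named in the study or known from retina, members at 0 in a library, the extremes of each subunit class, the 3 largest rises of the other channel list, and genes next to the threshold. Some genes covered by this rule are not reported here.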

Additional observations from a re-analysis of the deposited data

How the results depend on the processing

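No called result changed direction under the 17 alternatives. Kcnv2 alone was called under all 17 alternatives. The count of channel genes higher in S100A4-/- lenses (16) was 8 with a mean value of at least 50 required, which tests fewer genes, 7 without limma's trend and 3 under limma's treat test. For the last 2, and for the changes below, the cause was not tested. Leaving out 1 library gave 4 to 16, and the lone library left is then assumed to vary like the others. For Kcn genes (8) the counts were 3, 2 and 2, and 2 to 8 with 1 library left out. For Cacn genes (6) they were 3 without the trend and 1 under treat, and 2 to 6 with 1 library left out. For Scn genes (2) they were 0 at a mean of 50, 0 under quantile normalization, 0 under treat, 1 with equal totals and 1 in DESeq2, and 0 to 2 with 1 library left out. Lower channel genes numbered 2 with no fold limit. The median log2 fold change (0.31) was 0.11 at a mean of 50 and 0.16 under quantile normalization. Same-numbered libraries did not deviate together (r = 0.0119 across 14780 genes, which are not independent replicates), so the numbers do not pair the samples. A replicate block called 16 channel genes (576 of all genes), the same 16. Depth limits genes such as Kcnc2 and Scn7a, where 3 reads were worth 2.57 to 3.28.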
